A study of Mus musculus with 2 samples.

Results

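T cells without detected Cd8 are the liver T cells that carry no read of either CD8 coreceptor chain, a compartment that can hold helper, regulatory, natural killer T and gamma-delta T cells. They were chosen by measured values: a barcode was selected on at least 500 unique molecular identifiers (UMIs, 1 per captured RNA molecule), at most 50% of UMIs from mitochondrial genes, at least 2 detected of the T cell genes Cd3d, Cd3e, Cd3g, Trac and Trbc2, no UMI of Cd8a or Cd8b1, and fewer than 3 detected of 9 macrophage and B cell genes. This left 329 of 47880 kept barcodes. The levels of these rule genes are therefore a description and are not used as evidence of anything else.

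The data comprised 2 droplet-based single-cell libraries of mouse liver (10x Genomics 3′ chemistry), each from a pool of 3 livers. The WT mice are labelled by that word alone, whereas their male HKO littermates (genotype label AlbCRE) carried loxP-flanked miR-33 alleles and Albumin-Cre, a transgene driven by a hepatocyte promoter, so that deletion in T cells was not the design. Both groups had been fed CD-HFD, a high-fat diet low in choline, for 6 months from 8 weeks of age, and hepatocytes and live-sorted non-parenchymal cells were combined 1 to 1. Each genotype was sequenced as 1 pooled library. Without replicates no test was made, and the 95% intervals below cover counting error only, not differences between mice or preparations.

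Mature T cells bearing the alpha-beta receptor are divided by their coreceptor. CD4 T cells recognise peptide on MHC class II and differentiate into helper subsets or, under the factor Foxp3, into regulatory T cells that restrain other lymphocytes, whereas CD8 T cells recognise MHC class I and kill. The liver also holds many T cells with neither coreceptor, including natural killer T (NKT) cells, which depend on the factor Zbtb16, and gamma-delta T cells, whose receptor uses the constant chains Trdc and Tcrg-C. T cells accumulate in steatohepatitis and are a source of interferon gamma and tumour necrosis factor in that tissue.

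In the WT library 75 barcodes met the rule (0.253% of 29620 kept, 0.199 to 0.317) and in the HKO library 254 (1.39% of 18260, 1.23 to 1.57). The share of all kept barcodes was 5.49 times higher in HKO (4.23 to 7.21), but CD8 T cells had a ratio of 5.75, B cells one of 6.75 and NK or ILC1 (innate lymphoid) barcodes one of 3.76 on the same denominator. Among T, B and NK or ILC1 barcodes the share was 38.3% in WT (75 of 196) and 37.4% in HKO (254 of 679), a ratio of 0.978 (0.753 to 1.28). The counts in HKO thus stood higher for lymphocytes as a whole, while the share of T cells without Cd8 among lymphocytes did not differ beyond counting error. Since both suspensions were mixed to set proportions, none of these shares estimates the number of cells in the tissue.

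Depth limits what the absence of Cd8 means. Members had a median of 6639 UMIs in WT (1595 to 142397) and 2773 in HKO (945 to 68955). CD8 T cell barcodes carried a median of only 4 Cd8a and Cd8b1 UMIs in WT and 2 in HKO, and 12 of 53 and 71 of 188 of them had a single one, which places them just outside the rule. Below 2000 UMIs, 60 of 82 HKO T cell barcodes lacked Cd8 (73.2%, 62.2 to 82.4), against 142 of 267 (53.2%, 47.0 to 59.3) between 2000 and 4000. Over all depths the share without Cd8 was 58.6% of 128 WT T cell barcodes (49.6 to 67.2) and 57.5% of 442 HKO T cell barcodes (52.7 to 62.1). At the other edge of the rule, 28 WT and 68 HKO members had only 2 of the T cell genes, and 504 WT and 292 HKO barcodes with exactly 1 were left out.

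**Figure D1:**
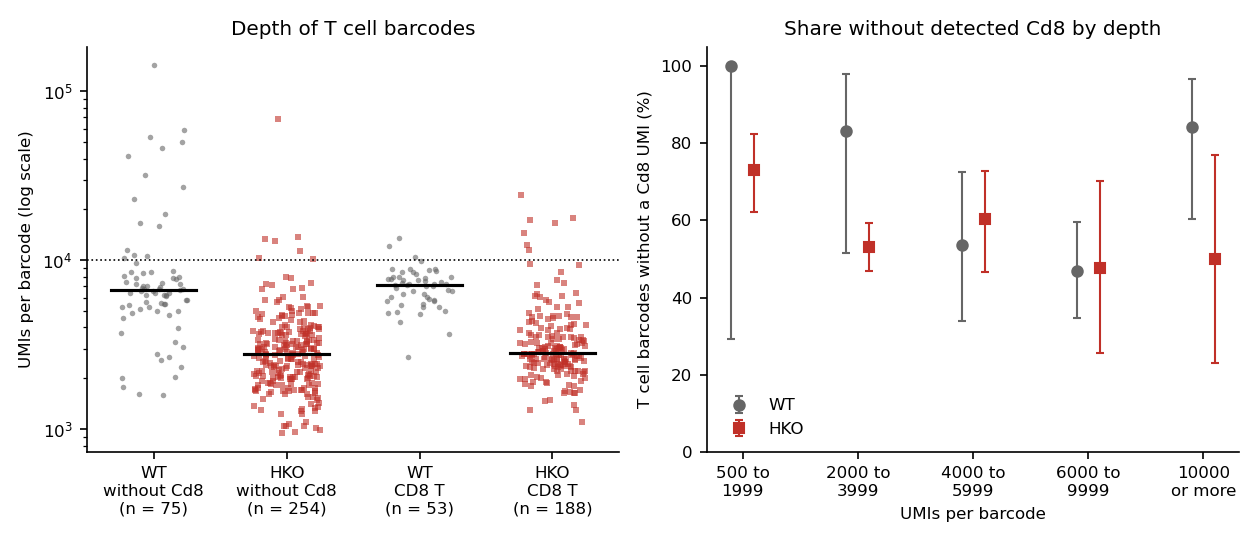
Left, UMIs per barcode (log scale) for each T cell barcode, with the median as a bar and 10000 UMIs as a dotted line; right, the percentage of T cell barcodes without a Cd8 UMI by depth, with exact 95% intervals (circles WT, squares HKO). In WT 16 members lie above 10000 UMIs, and the share without Cd8 there is 84.2%, against 47.0% between 6000 and 10000.

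The deepest WT barcodes stood apart and were treated separately. The 16 WT members of at least 10000 UMIs held 62.8% of all WT member UMIs, and 1 barcode alone held 15.7%, while in HKO 7 such members held 16.1%. Of the deep WT members 11 had at least 3 of the T cell genes. The mean over all 16 was 13.8 UMIs of these genes, against 8.58 in the other WT members. Hepatocyte marker genes took 15.96% of the UMIs of the deep WT members and 7.26% of those of the other WT members, against 11.9% and 4.33% in HKO. All 15 hepatocyte markers were detected in members of both libraries, so each barcode also carried hepatocyte RNA, and its part in the results was not tested. Markers of other cells were present in part of the members. Of 10 macrophage markers 9 were detected in each library, with Marco at 0, and at least 2 of them in 6 WT and 5 HKO members. Of 10 B cell markers 7 were detected in WT and 4 in HKO, with Cd79a and Iglc2 at 0 in both, and at least 2 of them in 5 and 3 members. In WT, 147 of the 149 Lyz2 UMIs and 42 of the 43 Ebf1 UMIs came from 1 barcode each. Of 13 NK and ILC1 genes 12 were detected in each library, with Klra4 at 0, and at least 2 of them in 31 WT and 79 HKO members. At least 2 endothelial, stellate or neutrophil markers were found in 8 and 7 members. The part of these barcodes in the results was not tested. No count profile was shared between WT and HKO members; since no WT barcode sequences were used here, barcodes were not matched by sequence. Summed levels in UMIs per 1000000 UMIs (CPM) are therefore given below with and without the deep barcodes.

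Of the markers given for these cells, Cd3e was found in 66.7% of WT members and 70.9% of HKO members and Trac in 58.7% and 52.0%, both through the rule. Cd4, which the rule did not use, was found in 25 of 75 WT members (33.3%, 22.9 to 45.2) and 42 of 254 HKO members (16.5%, 12.2 to 21.7). Cd4 (ENSMUSG00000023274; chromosome 6, 124864692 to 124888221, GRCm38) encodes the coreceptor for MHC class II. Lef1, a factor of naive and memory T cells, was found in 32% and 29.5%. Themis, a T cell receptor signalling gene that the rule did not use either, was found in 66.7% of WT members and 67.7% of HKO members, against 4.65% and 1.68% of B cells. Most members showed no Cd4 UMI, and they are not called CD4 T cells here.

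To determine which programs these cells carried, 6 small gene sets were scored per barcode. The helper program, at least 1 UMI of Cd4 or of Cd40lg, the CD40 ligand through which helper T cells activate B cells and macrophages, was present in 37 of 75 WT members (49.3%, 37.6 to 61.1) and 85 of 254 HKO members (33.5%, 27.7 to 39.6). It was nearly absent from the other lymphocytes, at 3.77% and 4.26% of CD8 T cells in WT and HKO. Among B cells it was found in 1 of 43 in WT and 0 of 179 in HKO (0 to 2.04%). The median depths of these B cells were 4922 and 2015 UMIs. After each barcode was thinned to 1000 UMIs the helper share was 12.1% in WT and 14.7% in HKO. The order of the libraries turned at equal depth, and none is therefore read from the unthinned shares. Cd40lg alone was found in 25.3% (15.99 to 36.7) and 20.1% (15.3 to 25.5) of members.

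Cd4 and Cd40lg marked partly different barcodes. Among barcodes with Cd4, 7 of 25 in WT (28.0%) and 8 of 42 in HKO (19.0%) also had Cd40lg, close to the 24.0% and 20.3% of members without Cd4. By contrast Icos, a costimulatory receptor, accompanied Cd4 in 56.0% of WT and 47.6% of HKO barcodes, against 24.0% and 32.1% where Cd4 was not seen. Ctla4, an inhibitory receptor of activated and regulatory T cells, was found with Cd4 in 84.0% (63.9 to 95.5) against 38.0% in WT, and in 47.6% (32 to 63.6) against 28.3% in HKO. Barcodes with Cd4 had median depths of 7281 and 2848.5 UMIs, against 5998.5 and 2773 without it, and thinned to 1000 UMIs per barcode Icos stood at 21.3% and 22.5% against 8.83% and 14.5%, and Ctla4 at 36.2% and 30.5% against 9.88% and 15.5%. Ccl5, a chemokine of effector T cells, was found in 76.0% and 71.4% of barcodes with Cd4, against 56.0% and 79.2% of those without it, so the direction differed between the libraries. Gzmk, a granzyme, was found in 10 of the 25 WT barcodes with Cd4 and in 5 of the 42 in HKO, against 14.0% and 14.6% of those without it.

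**Figure D2:**
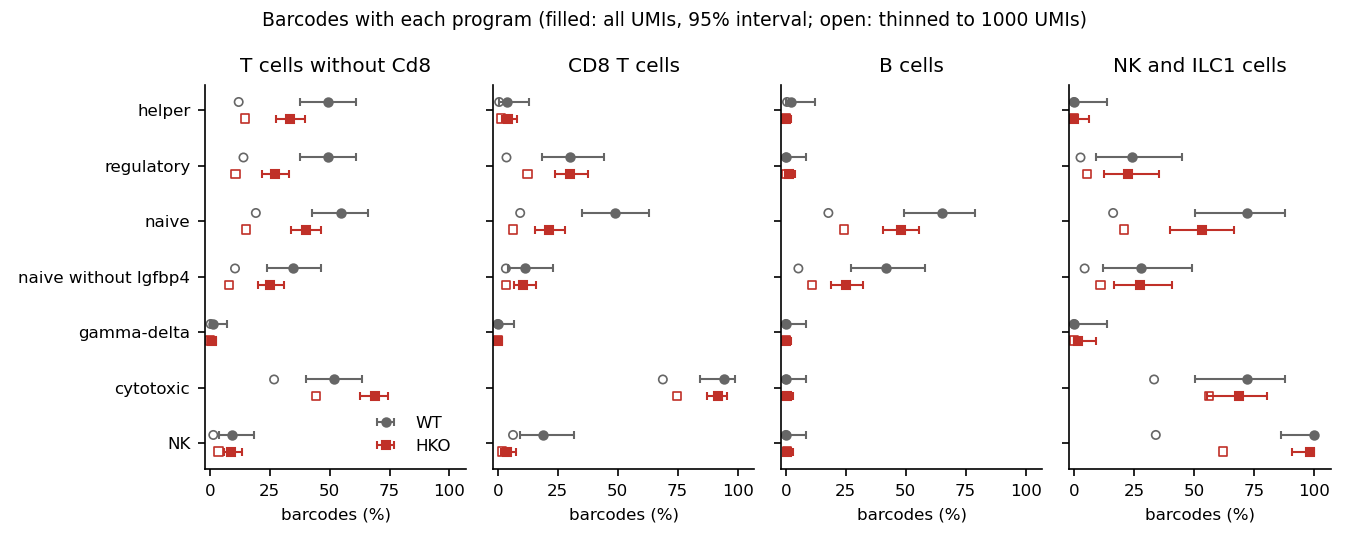
Percentage of barcodes with each program in 4 barcode classes (circles WT, squares HKO; filled, all UMIs with exact 95% intervals; open, thinned to 1000 UMIs). The helper program is at 49.3% and 33.5% in T cells without detected Cd8 and under 5% in each other class, whereas the naive program is at 65.1% and 48.0% in B cells.

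Foxp3, the defining factor of regulatory T cells, was seen in few barcodes, which at this depth does not limit the share of regulatory cells. Foxp3 (chromosome X, 7573644 to 7595245, GRCm38) was detected in 4 of 75 WT members (5.33%, 1.47 to 13.1) and 3 of 254 HKO members (1.18%, 0.244 to 3.41), in 0 of 53 and 1 of 188 CD8 T cells, and in no B cell barcode. The WT barcodes held 4, 2, 1 and 3 Foxp3 UMIs at depths of 10601, 5521, 5413 and 5304 UMIs, and the HKO barcodes held 2, 1 and 2 at 10284, 1701 and 3942. These few barcodes carried part of the program. Ikzf2, the factor Helios, was found in all 4 WT and all 3 HKO barcodes with Foxp3, against 47.9% and 36.7% of the others. Ctla4 was detected in 4 of 4 and 2 of 3, Tnfrsf18 (GITR) in 4 of 4 and 2 of 3, Icos in 3 of 4 and 3 of 3, and Il2ra, the high-affinity interleukin-2 receptor chain, in 1 of 4 and 3 of 3. Cd4 itself was seen in 2 of 4 and 0 of 3 of them, so 5 of the 7 barcodes with Foxp3 had no Cd4 UMI. Ccl5 was detected in 2 of 4 and 0 of 3.

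The wider regulatory set, at least 2 of Foxp3, Il2ra, Ctla4, Ikzf2, Tnfrsf18, Tnfrsf4, Il10 and Gpr83, was met by 37 WT members (49.3%, 37.6 to 61.1) and 69 HKO members (27.2%, 21.8 to 33.1). It was not particular to them, since 30.2% of WT and 30.3% of HKO CD8 T cells and 24.0% and 22.4% of NK or ILC1 barcodes met it too, against 0 of 43 and 2 of 179 B cells. Ctla4 (53.3% and 31.5% of members) and Ikzf2 (50.7% and 37.4%) carried the set, and both were frequent in CD8 T cells too (Ctla4 35.8% and 45.2%, Ikzf2 45.3% and 47.9%). Thinned shares were 14.1% and 10.7% of members and 3.62% and 12.4% of CD8 T cells. Gpr83 was detected in no member, and Il10, an inhibitory cytokine, in 7 and 6.

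Il2ra separated members from CD8 T cells in both libraries. It was found in 12 of 75 WT members (16%) and 24 of 254 HKO members (9.45%), but in 0 of 53 and 0 of 188 CD8 T cells. For such a count of 0 the limit of detection was set at 3 barcodes, or 5.66% and 1.60%. B cells had it in 2.33% and 1.12% and NK or ILC1 barcodes in 20.0% and 8.62%. Only 1 of the 12 and 3 of the 24 also had Foxp3, whereas Icos was found in 9 of 12 and 21 of 24 and Cd40lg in 7 of 12 and 8 of 24. Among members without Il2ra, Icos was found in 27.0% and 29.1%. In HKO barcodes with Il2ra were deeper (medians of 3854.5 and 2657 UMIs), and thinned to 1000 UMIs Icos was at 34.1% and 37.2% with Il2ra and 8.98% and 13.6% without it. The interleukin-2 receptor was thus detected mostly outside Foxp3 barcodes.

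Naive and central memory genes were present but shared with other lymphocytes. At least 2 of a set of 7 genes that included Lef1, Ccr7, Igfbp4, Dapl1, Satb1 and Tcf7 were detected in 41 WT members (54.7%, 42.8 to 66.2) and 102 HKO members (40.2%, 34.1 to 46.5), but also in 65.1% and 48.0% of B cells. Igfbp4 was detected in 90.7% and 63.4% of members, 97.7% and 60.9% of B cells and 100% and 68.6% of CD8 T cells, so it did not distinguish classes. Without Igfbp4, a change made after these values were seen, the program was met by 34.7% (24.0 to 46.5) and 25.2% (20.0 to 31.0) of members and by 11.3% and 10.6% of CD8 T cells. Ccr7, the chemokine receptor for entry into lymph nodes that marks naive T cells, was rare: it was found in 4 WT members (5.33%, 1.47 to 13.1) and 7 HKO members (2.76%, 1.11 to 5.60). B cells had Ccr7 in 23.3% and 12.8%.

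The memory-associated genes were more frequent than Ccr7. Il7r, the interleukin-7 receptor that sustains memory T cells, was found in 40.0% of WT and 42.1% of HKO members against 30.2% and 14.4% of CD8 T cells. Tcf7, the factor TCF-1, was found in 32% and 20.1% against 24.5% and 10.6%. Lef1 and Il7r occurred together: 70.8% of WT and 58.7% of HKO barcodes with Lef1 had Il7r, against 25.5% and 35.2% without it. Cxcr6, a receptor of liver-resident lymphocytes, was found in 45.8% and 54.7% of barcodes with Lef1, against 29.4% and 41.3% of the others. Barcodes with Lef1 had median depths of 6603.5 UMIs in WT and 3135 in HKO, against 6639 and 2538 for the others. With the second gene thinned to 1000 UMIs per barcode, a check added after these values were seen, Il7r was at 38.4% and 35.2% with Lef1 and at 9.69% and 19.0% without it, and Cxcr6 at 14.97% and 26.6% against 6.50% and 19.5%.

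Gamma-delta T cells were at the edge of detection. The program, Trdc together with another gamma-delta gene, was met by 1 of 75 WT members (1.33%, 0.0338 to 7.21) and 2 of 254 HKO members (0.787%, 0.0955 to 2.82), and by 0 of 53 and 0 of 188 CD8 T cells. The WT barcode held 3 Trdc UMIs with Tcrg-C1, Tcrg-C2, Trgv2 and Cd163l1 and no Trac, at 6639 UMIs. In HKO, Trdc was found in 5 barcodes, of which 3 also had Trac, 4 had Ccl5 and 3 had Eomes, a factor of NK and memory T cells. Gamma chain transcripts were not specific. Trgv2 was found in 8.00% and 11.0% of members but in 28.3% and 17.0% of CD8 T cells and in no B cell, and Tcrg-C2 in 16% and 9.06% against 37.7% and 17.0%. Tcrg-C1 went the other way, at 8.00% and 7.87% of members and 3.77% and 1.60% of CD8 T cells. Among barcodes with Trgv2, 2 of 6 WT and 9 of 28 HKO had Trac. Delta V segments were found in 0 of 75 WT and 2 of 254 HKO members. NK or ILC1 barcodes, which lie outside the rule, had them in 3 of 25 (12%, 2.55 to 31.2) and 7 of 58 (12.1%, 4.99 to 23.3).

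Transcripts of innate-like and interleukin-17 T cells were also found. Zbtb16 (PLZF) was found in 38.7% of WT members and 24.4% of HKO members, against 22.6% and 6.38% of CD8 T cells and 14.0% and 2.23% of B cells. Il4, the signature T helper 2 cytokine, which NKT cells also make, was detected in 3 WT and 9 HKO members and in no CD8 T, B, NK or ILC1 barcode. Zbtb16 accompanied it in 3 of 3 and 6 of 9, against 36.1% and 22.9% of the other members. Trav11, the alpha segment of invariant NKT receptors, was found in 0 of 75 and 0 of 254, but V segments of any kind were seen in only 24.0% and 26.4% of members. Il23r, the interleukin-23 receptor, was found in 4 and 9 members, with Icos in 2 of 4 and 7 of 9. Il17a was found in 0 WT and 2 HKO members, both with Tcrg-C1, and Il13, Il5 and Il17f in none.

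Effector genes were widespread. At least 2 of Gzma, Gzmb, Gzmk, Prf1, Nkg7, Ccl5 and Klrd1 were detected in 39 WT members (52.0%, 40.2 to 63.7) and 175 HKO members (68.9%, 62.8 to 74.5), against 94.3% and 92.0% of CD8 T cells, 0 of 43 WT and 1 of 179 HKO B cells and 72.0% and 69.0% of NK or ILC1 barcodes. Thinned to 1000 UMIs the shares were 26.9% and 44.5% of members and 68.8% and 74.7% of CD8 T cells, so in this pair of libraries the HKO share was above the WT share at equal depth too. Of the helper barcodes 22 of 37 in WT (59.5%, 42.1 to 75.25) and 58 of 85 in HKO (68.2%) were also cytotoxic. Of the other members 17 of 38 in WT (44.7%, 28.6 to 61.7) and 117 of 169 in HKO (69.2%) were. Helper barcodes therefore did not stand apart in HKO, and in WT the intervals overlapped. The NK program, at least 2 of 7 NK genes, was met by 7 and 23 members (9.33% and 9.06%). Of the members, 13 in WT (17.3%) and 86 in HKO (33.9%) met none of the helper, regulatory, naive or gamma-delta programs, and their median depths of 3301 and 2237 UMIs were below those of the other members, 6751 and 2979.

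Next, the members of both libraries were clustered together without the T cell genes of the rule, which gave 9 clusters. Their leading genes describe the clusters and are not findings. A cluster was named only where at least 3 fixed markers stood at least 2-fold above the other members in at least 10% of its barcodes and 1 of them was among its 10 leading genes, unless more checkpoint genes than markers of its own led it, a clause added after the clusters were seen. The naive-like cluster (13 WT and 23 HKO barcodes) had Ccr7 among its leading genes and had Lef1 in 61.1%, Il7r in 63.9% and S1pr1, the receptor for exit into blood, in 50.0% of its barcodes. The regulatory-like cluster (9 WT and 31 HKO) had Foxp3 in 15%, Icos in 62.5%, Ctla4 in 62.5% and Cd4 in 42.5%, and all 6 regulatory markers passed. The Th17-like cluster (6 WT and 12 HKO) was led by Il23r, with Il7r in 94.4%, Icos and Cxcr6 in 83.3% each, Il2ra in 61.1% and Cd40lg in 55.6%, and it passed 3 gamma-delta markers besides 5 of 6 Th17 markers.

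The effector side held several kinds of cells. One cluster (12 WT and 35 HKO) had the checkpoint genes Tigit, Eomes and Pdcd1 among its leading genes beside the cytotoxic genes Gzmk and Ccl3. By the added clause it was left unnamed, with 16% of WT and 13.8% of HKO members. It had Cd4 in 38.3%, Ctla4 in 76.6% and Gzmk in 66.0% of its barcodes. The cytotoxic-like cluster (4 WT and 17 HKO) was led by Ccl4 and Ccl5 and had Cd4 in 19.0%. The NK and ILC1-like cluster (3 WT and 23 HKO) had no Cd4, had Xcl1 in 76.9% and Gzmb in 57.7%, and was led by the receptors Ncr1, Klra7 and Klra5, and it also passed 6 of 7 cytotoxic and 3 gamma-delta markers. Among the other clusters left unnamed, one (9 WT and 46 HKO) was led by Kcnq5 and Klrb1c, with Il7r in 72.7%, Zbtb16 in 61.8%, Icos in 61.8% and Lef1 in 60.0%. Another (4 WT and 43 HKO) was led by Cd160 and Cd40lg, with Ccl5 in 97.9% and Cxcr6 in 48.9%. In both, Th1 and residence markers passed (3 and 5) without leading. The last (15 WT and 24 HKO) passed 3 markers of no class, held 13 of the members of at least 10000 UMIs and had 16.9% of its UMIs from hepatocyte markers, against 4.07% to 8.59% in the other clusters. With 1 library per genotype, cluster sizes are not compared between WT and HKO.

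**Figure D3:**
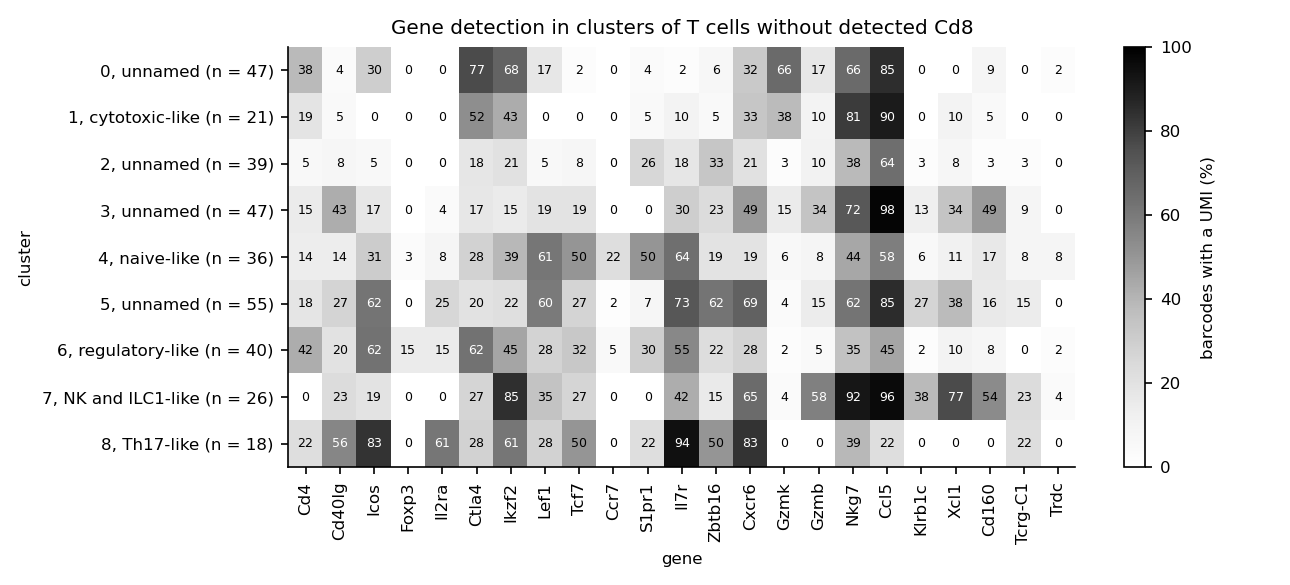
Percentage of barcodes with at least 1 UMI of each gene (columns) in each of the 9 clusters (rows, both libraries together; shading from 0 to 100%). Ccr7 is at 22.2% in the naive-like cluster and Foxp3 at 15% in the regulatory-like cluster, while Ccl5 is at 85.1% or more in 5 of the 9 clusters.

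To see how these cells differ from CD8 T cells in the same library, CPM over all members were set against CPM over CD8 T cells (53 WT and 188 HKO barcodes). Of 9174 genes measured in both libraries, 92 were at least 2-fold higher in members in both (1.00%) and 94 at least 2-fold lower in both (1.02%). Without barcodes of at least 10000 UMIs, 87 of 7746 were higher (1.12%) and 49 lower (0.63%). The signalling genes of the T cell receptor did not separate the classes in the latter set, with none of 16 at least 2-fold apart in both libraries and median log2 ratios of 0.05 in WT and 0.04 in HKO, beside 0.01 and 0.02 over all genes. In the sums that kept the deep barcodes the WT median of that list was -1.03. Levels per gene are therefore given without these barcodes, and ratios with their intervals for all barcodes.

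Cd4 ranked first among the genes higher in members. It stood at 101 CPM in WT members and 2.94 in WT CD8 T cells, and at 68.1 and 3.46 in HKO. Over all barcodes these were 49 UMIs against 1 and 52 against 3, ratios of 20.4 (3.49 to 820) and 13.7 (4.44 to 68.7). Cd40lg stood at 86.1 and 2.94 CPM in WT and 106 and 12.1 in HKO. Icos stood at 234 and 55.8 CPM in WT and 219 and 83.0 in HKO, with ratios over all barcodes of 1.95 (1.18 to 3.38) and 2.65 (1.93 to 3.704). Of the 11 helper lineage genes, these 3 were at least 2-fold higher in both libraries without the deep barcodes and 2 of them, Cd4 and Cd40lg, over all barcodes, and Tox was at least 2-fold lower in either case. Il2ra stood at 53.4 CPM in WT and 50.4 CPM in HKO members, against 0 UMIs in CD8 T cells, at least 6.06-fold and 9.71-fold higher against a floor of 3 UMIs summed over the class. Over all barcodes these bounds were 2.49-fold and 11.9-fold.

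Among memory and innate-like genes, Il7r was at 377 CPM in WT members against 153 in CD8 T cells and at 376 against 137 in HKO. Lef1 was at 246 against 99.9 CPM and 191 against 62.2 CPM. With the deep barcodes kept, the WT ratio of Lef1 was 0.831 (0.584 to 1.20) and that of HKO 2.64 (1.86 to 3.82), so the WT difference rests on leaving them out. The same holds for the WT differences of Il7r, with ratios over all barcodes of 1.17 (0.856 to 1.62) in WT and 2.58 (2.02 to 3.33) in HKO, and of Satb1, with 1.40 (0.979 to 2.05) and 2.14 (1.69 to 2.72). Zbtb16 was at 140 against 35.3 CPM in WT and 182 against 15.6 CPM in HKO, with ratios over all barcodes of 3.80 (2.14 to 7.35) and 9.44 (5.36 to 18.1). Lef1, Il7r and Satb1 were the 3 of 12 measured naive and memory genes at least 2-fold higher in both libraries without the deep barcodes, and over all barcodes none was. Ccr2, a receptor for recruitment from blood, was at 65.3 against 14.7 CPM and 73.5 against 10.4 CPM, but over all barcodes its WT ratio was 1.39 (0.641 to 3.32) and its HKO ratio 7.12 (3.07 to 20.3).

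The gene with the second largest difference by the ranking rule was Kcnq5, a potassium channel gene (ENSMUSG00000028033; chromosome 1, 21398403 to 21961942, GRCm38). It had 152 UMIs in WT members and 1 in WT CD8 T cells, a ratio of 63.2 (11.2 to 2511), and 458 against 68 in HKO, a ratio of 5.33 (4.12 to 6.98). It had a UMI in 26.7% of WT members and 30.7% of HKO members, against 1.89% and 13.8% of CD8 T cells. Zbtb16 was found in 14 of 20 WT (70.0%, 45.7 to 88.1) and 36 of 78 HKO (46.2%, 34.8 to 57.8) barcodes with Kcnq5, against 27.3% and 14.8% of members without it, and Satb1 in 65.0% and 50.0% against 23.6% and 21.6%. Others high by the same ranking included Arntl, March3, Ccdc9, Socs2, Furin, Alg2, Nebl, Tspan32, 2310011J03Rik, Pecam1 and Ighm. Pecam1 is an endothelial marker and Ighm a B cell marker, found in 22.7% and 17.7% (Pecam1) and 22.7% and 7.48% (Ighm) of members. Of the other B cell markers Ebf1 had 43 UMIs in WT and 2 in HKO members and Igkc 23 and 24, and the part of B cell RNA in the Ighm value was not tested.

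Part of the cytotoxic and exhaustion genes were lower in members. Of 13 cytotoxic genes, 6 were at least 2-fold lower than in CD8 T cells in both libraries without the deep barcodes (Gzma, Gzmb, Nkg7, Ccl5, Ccl4 and Ccl3), and none was higher, with median log2 ratios of -1.47 in WT and -1.32 in HKO. Ccl5 stood at 2837 CPM in WT members and 8348 in WT CD8 T cells, and at 5233 and 14239 in HKO. Nkg7, a granule membrane protein, stood at 303 and 1011 CPM in WT and 557 and 1222 in HKO. Of 10 checkpoint and exhaustion genes, Tox, Lag3, Havcr2 and Eomes were at least 2-fold lower in both. Klrd1, a receptor chain of NK and CD8 T cells, had ratios of 0.352 in WT and 0.993 in HKO, and Tigit, an inhibitory receptor, 1.77 and 0.348. Entpd1 (CD39) had 1.15 and 0.768. Pdcd1 (PD-1) stood at 29.7 against 55.8 CPM in WT and 24.5 against 96.8 CPM in HKO, and was detected in 9.33% and 5.51% of members against 26.4% and 19.7%. Ctla4 differed in direction, at 282 against 126 CPM in WT and 262 against 320 CPM in HKO, a difference between libraries that was not tested. Lower ranked genes also included Ier3, Smyd1, Gm44174, Setbp1, Chsy1, Cst7, Nr4a2, Lax1, Rpa2, Baiap3, Phgdh, Ndufaf5 and Izumo4. Without the deep barcodes the WT ratio was 0.842 for Phgdh, 0.806 for Setbp1, 0.932 for Baiap3 and 0.949 for Nr4a2, so in WT these 4 differences rest on the deep barcodes.

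**Figure D4:**
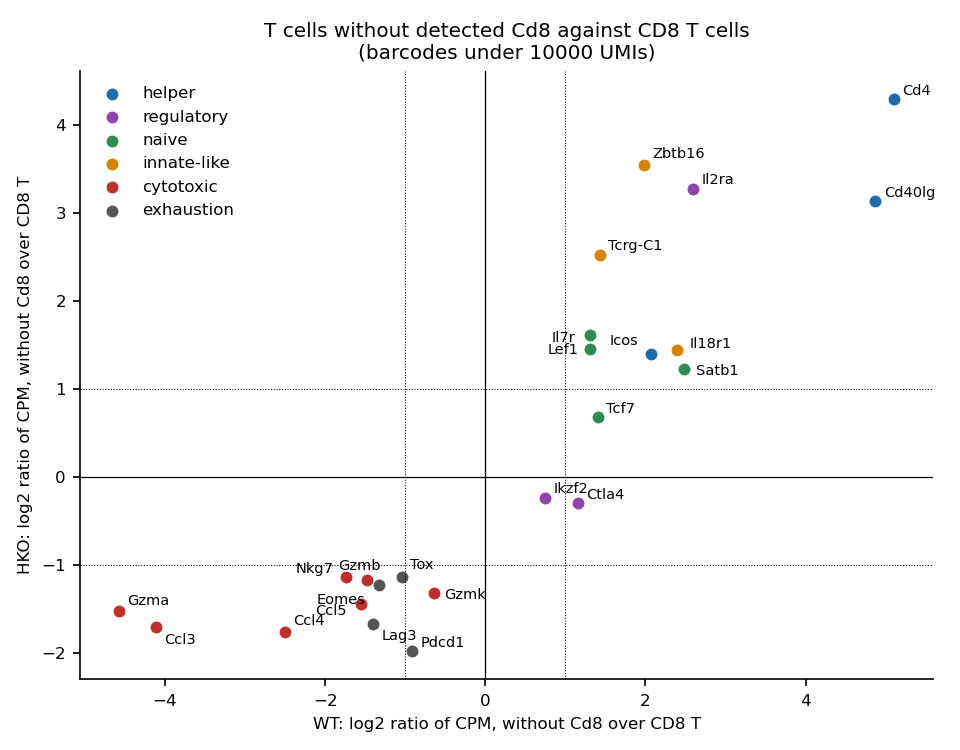
Log2 ratio of CPM in T cells without detected Cd8 over CD8 T cells, WT on the horizontal and HKO on the vertical axis, for chosen genes of 6 groups in barcodes under 10000 UMIs (dotted lines mark 2-fold; a count of 0 was set to 3 UMIs). Cd4, Cd40lg, Il2ra and Zbtb16 lie high on both axes, the granzyme and chemokine genes lie low on both, and Ctla4 and Ikzf2 lie on different sides of 0.

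The last comparison asked which genes differed between HKO and WT members. Over all members, 1493 of 10399 genes were at least 2-fold higher in HKO (14.4%) and 1077 lower (10.4%). Without members of at least 10000 UMIs, 743 of 9225 were higher (8.05%) and 794 lower (8.61%). The deep WT barcodes moved whole lists. The T cell receptor signalling list had a median log2 ratio of 0.91 over all members and 0.17 without the deep ones, beside 0.16 and 0.00 over all genes, and the helper lineage list had 0.66 and -0.10. A higher level of a T cell gene in HKO over all members is therefore read only beside its value without the deep barcodes.

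Granzyme A and chemokine genes were higher in HKO, by less without the deep barcodes. Gzma had 3 UMIs in WT and 138 in HKO members, or 3.31 CPM (0.683 to 9.68) and 158 CPM (133 to 186), a ratio of 47.6 (15.96 to 234) and of 21.1 (7.07 to 103.6) without the deep barcodes. It was detected in only 3 of 75 WT (4.00%) and 15 of 254 HKO members (5.91%), and 1 HKO barcode held 22.5% of its UMIs, so the difference lay in a few barcodes with many Gzma UMIs. In CD8 T cells Gzma was detected in 17.0% and 18.1%. Ccl3 had 3 and 51 UMIs, a ratio of 17.6 over all members and 10.6 (2.76 to 89.8) without the deep barcodes, with 33.3% of the HKO UMIs in 1 barcode. Ccl4 was at 157 and 372 CPM without the deep barcodes, a ratio of 2.36 (1.76 to 3.24) against 4.96 over all members. Ccl5 was at 2837 and 5233, a ratio of 1.84 (1.72 to 1.98) against 2.86 over all members, and of 1.27 after free RNA was subtracted. The free RNA estimate was 9.95 of 1436 Ccl5 UMIs in WT and 8.73 of 3960 in HKO. The drop to 1.27 thus came from the smaller WT total that the subtraction left.

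Some residence and NK-related genes were also higher in HKO. Xcl1, a chemokine for cross-presenting dendritic cells, was at 92.0 CPM in WT and 211 CPM in HKO without the deep barcodes, a ratio of 2.29 (1.55 to 3.49). It was detected in 10.7% and 24.4% of members, and 1 WT barcode held 41.9% of its WT UMIs. Cd160, a receptor of intraepithelial and NK-like T cells, had 11 and 79 UMIs, a ratio of 7.44 (3.94 to 15.5) over all members and of 3.62 without the deep ones. It was found in 10.7% and 20.9% of members. Klra5, a Ly49 receptor, had 4 and 33 UMIs, a ratio of 8.54 (3.04 to 33.2) over all members and of 3.67 (1.30 to 14.3) without the deep ones. All 4 WT UMIs lay in 1 barcode, and with barcodes weighted equally the ratio was 2.74. Cxcr6 was at 145 and 270 CPM, a ratio of 1.85 (1.35 to 2.59). Other genes of these lists were not: the Ly49 receptor gene Klra9 stood at 68.3 CPM among WT and 14.98 CPM among HKO members, giving 0.219 (0.0966 to 0.469), and the signalling adaptors Tyrobp and Fcer1g had ratios of 0.612 (0.298 to 1.28) and 0.935 (0.575 to 1.56). Over all members 8 of 13 tissue residence and 7 of 11 NK and ILC1 genes were at least 2-fold higher in HKO, beside 14.4% of all genes. Without the deep barcodes 2 of 12 and 3 of 11 were, beside 8.05%, and 0 and 1 were at least 2-fold lower, beside 8.61%. Free RNA barcodes lack the NK and ILC1 genes by definition, so subtracting free RNA took no UMI from these genes. It changed only the totals, and the ratio of Klra9 went from 0.335 over all members to 0.148. By those values 1 of the 11 NK and ILC1 genes was higher and 3 were lower, beside 1677 and 1490 of all 9911 genes. These counts are therefore no check for free RNA in the list. Over all members 10 of 13 cytotoxic and 12 of 16 cytokine genes were at least 2-fold higher in HKO, beside 14.4% of all genes. Without the deep barcodes 3 of 13 and 5 of 16 were, beside 8.05% of all genes, with median log2 ratios of 0.82 and 0.75. After free RNA was subtracted from the sums of all members these medians were 0.305 and 0.395, and the helper lineage median was -0.519. The subtraction also shrank the WT total more than the HKO total, so these drops do not measure free RNA in the listed genes. Other genes high by the ranking rule were Rasgrf1, Blm, Rgs19, Ahi1, Srgap3, Gm14718 and Gm20186.

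The helper, regulatory and naive genes were mixed. Without the deep barcodes none of 11 helper genes was at least 2-fold higher in HKO and 1 (Zbtb7b) was lower, 1 of 12 regulatory genes was higher (Tnfrsf9) and 2 were lower (Tigit and Capg), and 2 of 14 naive and central memory genes were higher (Rflnb and Il6ra) and 1 was lower. In the same barcodes 8.05% of all genes were higher and 8.61% were lower. Without the deep barcodes Cd4 was at 101 CPM in WT and 68.1 in HKO (ratio 0.675, 0.428 to 1.08) and Cd40lg at 86.1 and 106 (1.23, 0.797 to 1.96). Il2ra was at 53.4 and 50.4 CPM (0.943, 0.524 to 1.76), although over all members its ratio was 2.59 (1.47 to 4.75). Lef1 was at 246 and 191 CPM (0.774, 0.586 to 1.03), Il7r at 377 and 376 (0.997, 0.805 to 1.24) and Ctla4 at 282 and 262 (0.927, 0.722 to 1.20). For none of these 6 genes did the interval leave out 1, and at these counts Cd4 could lie anywhere from 0.428 to 1.08 times WT. The regulatory list had a median log2 ratio of -0.12, and the naive and central memory list one of -0.05. Foxp3 had 10 UMIs in WT and 5 in HKO (0.518, 0.139 to 1.66), too few to tell the libraries apart.

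Genes lower in HKO were of several kinds. Hspa5, the chaperone BiP of the endoplasmic reticulum, was at 490 CPM in WT and 283 CPM in HKO without the deep barcodes, a ratio of 0.578 (0.469 to 0.714), and the unfolded protein response list had a median of -0.85, with 3 of 18 genes at least 2-fold lower, beside 8.61% of all genes, and none higher. Over all members 489.6 of 516 Hspa5 UMIs in WT and 112.5 of 252 in HKO were estimated as free RNA. Its ratio after subtraction was 2.42, the other direction, so its lower level in HKO is not assigned to the T cells. The hepatocyte markers had a median of -0.72 in the barcodes under 10000 UMIs. The estimated free RNA left at most 3 UMIs in WT for 12 of the 18 unfolded protein response genes, so the subtracted median of this list is not read. Cytosolic ribosomal protein genes had a median of 0.68 without the deep barcodes, with 4 of 81 at least 2-fold higher, beside 8.05% of all genes. Over all members the median was 0.85, with 21 of 81 higher, beside 14.4% of all genes. After free RNA was subtracted 2 of 81 were, beside 1677 of all 9911 genes. The ranking rule named Marveld2, Recql5, Nsdhl, 1110019D14Rik, 2610021A01Rik, Als2cl, Spsb3, Kcnk5, Pkp3 and Sephs1, each with at most 45 UMIs in WT and ratios from 0.282 to 0.498 over all members. Without the deep barcodes their ratios ran from 0.125 to 0.688, and Spsb3 (0.688, 0.163 to 3.32) and 1110019D14Rik (0.574, 0.124 to 2.89) were no longer at least 2-fold lower. Among 7 miR-33 targets the median was -0.45 over all members and 0.23 without the deep ones. In the latter 1 of 6 was at least 2-fold higher and 1 (Crot) lower, beside 8.05% and 8.61% of all genes. The higher one had 3 UMIs in WT and 15 in HKO there. Over all members 1 barcode held 67.3% of its HKO UMIs, and its WT free RNA estimate, 13.47 UMIs, was above its 10 UMIs. Crot, the peroxisomal carnitine octanoyltransferase, was at 715 CPM in WT and 357 CPM in HKO without the deep barcodes, a ratio of 0.499 (0.417 to 0.597), and of 0.615 over all members. Its estimated free RNA in WT, 960.4 UMIs, was above its 702 UMIs, so no subtracted ratio is given. Abca1, the cholesterol exporter, had a ratio of 0.669 (0.504 to 0.885) over all members and of 0.843 (0.557 to 1.30) without the deep barcodes. After subtraction its ratio was 0.498, with 104.8 of its 133 WT UMIs estimated as free RNA. Cell cycle genes had a median of -0.997 over all members, but 2 WT barcodes of 16509 and 18758 UMIs held 9 and 14 Mki67 UMIs, both with Cd4, and without the deep barcodes the median was 0.54 over 6 genes.

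**Figure D5:**
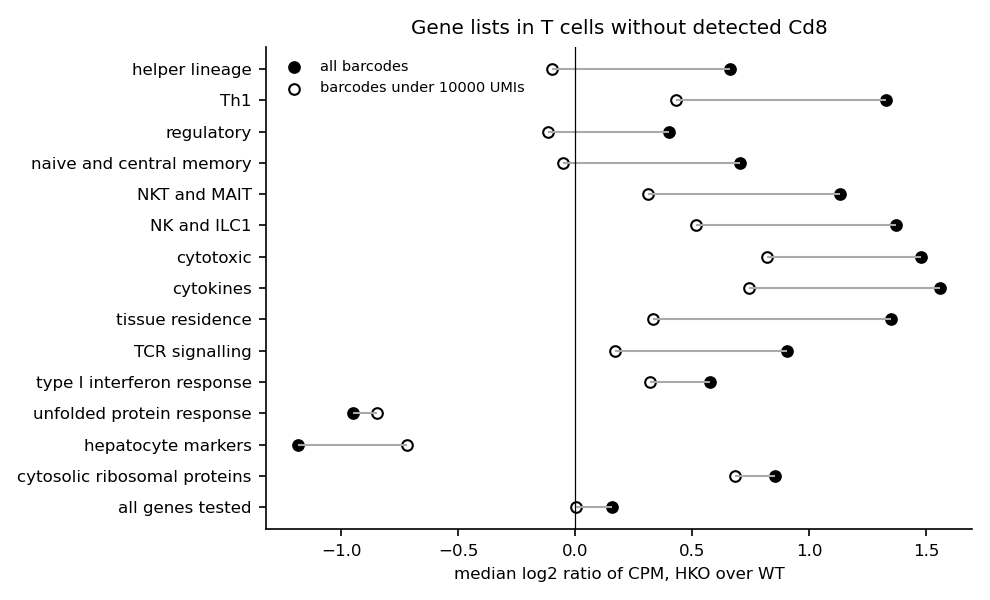
Median log2 ratio of CPM, HKO over WT, for 14 gene lists and all genes tested, over all members (filled) and over members under 10000 UMIs (open). Most T cell lists shift toward 0 without the deep barcodes, from 0.91 to 0.17 for T cell receptor signalling, while the cytotoxic and cytokine lists are at 0.82 and 0.75.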

How the data were processed

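The authors deposited 1 table of UMI counts per library, made with Cell Ranger 7.1.0 per the file headers; the values were whole counts with no normalization. The submitters' processing notes name mm10 and Seurat 3. The annotation, the intron setting and the selection of deposited barcodes (30078 WT, 20000 HKO) were not given in the sources used here. If introns were counted, long genes gain UMIs.

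Barcodes were assigned to classes by detected genes alone. Members and gene lists were chosen with earlier results of these data known. No doublet caller was run; the macrophage and B cell clause of the rule removed some doublets, and deep or mixed barcodes were left out as alternatives. Members had 905937 UMIs in WT and 875044 in HKO. Shares have Clopper-Pearson intervals, CPM Poisson intervals and ratios exact conditional intervals, at 95%. The limit of detection printed for Il2ra in CD8 T cells is instead 3 barcodes of the class, and the exact limit is wider. Genes needed 10 UMIs over the classes compared, and a count of 0 was set to a floor of 3 counts. Called means at least 2-fold apart, with no test.

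B cells had at least 2 of 6 B cell genes and fewer than 2 macrophage genes, NK or ILC1 barcodes at least 2 of 7 NK genes and fewer than 2 of the 9 macrophage and B cell genes, and both fewer than 2 T cell genes. Free RNA barcodes carried no lineage gene and had under 5000 UMIs; their profile, scaled by hepatocyte markers, gave the free RNA of a class. Ratios after subtraction use the total UMIs left in each library. Since they lack NK, endothelial, stellate and neutrophil genes by definition, B cells served as the background for detection. Thinning drew UMIs without replacement, 100 times, to 1000 UMIs or to 300 UMIs of genes under 100 CPM in free RNA; 3 and 4 shallower HKO members were left out, and no WT member.

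Members were clustered after scaling to 10000 UMIs per barcode and log1p, with 1000 variable genes excluding mitochondrial, ribosomal, T cell receptor variable and rule genes and genes over 100 CPM in free RNA, 15 principal components, 15 neighbours and Leiden resolution 1.0 (scanpy 1.11.5, igraph 0.11.9, Python 3.11.15, scipy 1.17.1). Named genes were all genes of 31 lists, plus the 10 highest and lowest HKO over WT ratios and the 15 highest and lowest against CD8 T cells, among genes with at least 20 UMIs (10 in WT for the latter), under 50% free RNA, at most 25% of UMIs in 1 barcode of the side where the gene is higher and, for HKO over WT, an interval without 1. The scripts were tested on simulated data. Results for a few genes of these lists and rankings are not reported here.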

Additional observations from a re-analysis of the deposited data

How the results depend on the processing

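No paired analysis was possible because each genotype has 1 library and no result comes from a test. Of 148 comparisons of a main result with an alternative, 103 stayed within 1.5 times the count or inside the interval and 45 moved; for single genes, pairs and lists 550 of 753 stayed, 199 moved and 4 turned from a reported value of at least 2-fold to the other direction. Of 725 log2 ratios of genes and lists the sign was kept in 641 and turned in 69, of which 65 had a reported value under 2-fold; the other 15 were reported as 0 because the libraries differed in direction. The cause was not tested unless the alternative's construction (fewer barcodes, genes or UMIs) gives it.

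Requiring at least 3 T cell genes left 47 WT members, with the helper program in 72.3% and the regulatory program in 61.7% of them, and the cytotoxic program in 75.3% of HKO members. Thinning to 1000 UMIs gave, for WT and HKO members, 12.1% and 14.7% (helper), 14.1% and 10.7% (regulatory), 19.25% and 15.1% (naive) and 26.85% and 44.5% (cytotoxic). Thinning to 300 UMIs of genes low in free RNA gave 8.76% and 10.1% (helper), 9.87% and 6.26% (regulatory), 7.75% and 4.05% (naive) and 22.25% and 34.4% (cytotoxic), with gamma-delta at 0.068% in HKO. Requiring 1 more gene, or 1 more UMI for helper, gave 26.7% and 11.0% (helper), 28.0% and 7.48% (regulatory), 33.3% and 18.5% (naive) and 33.3% and 33.5% (cytotoxic). The naive program without Igfbp4, chosen after seeing the data, was at 34.7% and 25.2%.

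Genes at least 2-fold higher in HKO numbered 914 with at least 3 T cell genes, 760 with none of the 9 macrophage and B cell genes, 743 without the deep members, 649 with CPM over genes low in free RNA, 984 with barcodes weighted equally and 841 with a minimum of 30 UMIs; lower genes numbered 701 with none of the 9 genes and 690 with the minimum of 30. Against CD8 T cells in both libraries, 179 genes were higher and 151 lower after free RNA was subtracted, and 19 and 29 with the minimum of 30. Without barcodes of at least 10000 UMIs, also chosen after seeing the data, 49 were lower. Resolution 0.5 gave 5 clusters. The 4 log2 ratios of HKO over WT that were at least 2-fold and turned were those of Il2ra without the deep members (-0.084) and, after free RNA was subtracted, of Gzmb (-0.147), the NKT and MAIT median (-0.042) and the hepatocyte marker median (1.195). Of 12 list medians 8 turned under at least 1 alternative: beside the last pair, helper lineage (-0.519 to -0.097, 2 alternatives), regulatory (-0.783 to -0.01, 6), naive and central memory (-0.177 to -0.05, 2), T cell receptor signalling (-0.264, 1), unfolded protein response (1.494, 1) and miR-33 targets (0.043 to 0.933, 5). The subtraction left at most 3 UMIs in WT for 2973 of 9911 genes, among them 12 of 18 unfolded protein response genes, 6 of 12 hepatocyte markers and 2 of 6 miR-33 targets, so for these the turned value rests on the floor. It also left a smaller WT total, which lowers the ratio of genes with little free RNA. Of the Gzmb UMIs, 0.63 of 46 in WT and 0.289 of 90 in HKO were estimated as free RNA.

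Depth limits rare genes most: Foxp3, Trdc and Il4 rest on 1 to 9 barcodes per library, and a missing Cd8 or Cd4 UMI does not show that a cell lacks the receptor.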
